A study of Saccharomyces cerevisiae x Saccharomyces kudriavzevii with 6 samples.

Results

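RNA polymerase I (Pol I) transcribes the precursor of the large ribosomal RNAs, and RNA polymerase III (Pol III) transcribes the tRNAs, the 5S rRNA and other short RNAs. Both are enzymes of many subunits, of which some are shared between them and some also with Pol II, which makes mRNA. Pol I is brought to the ribosomal DNA by the factor RRN3, the core factor and the upstream activating factor. Pol III is placed on its genes by TFIIIC, which binds promoter elements inside tRNA genes, and by TFIIIB, which TFIIIC recruits upstream of them. MAF1 represses Pol III when growth conditions are poor, and in budding yeast the activity of both enzymes is tied to growth. The arrays read the mRNAs of this machinery, not its products.

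The machinery was taken as 39 ORFs given by systematic name, from a definition that names the subunits of Pol I and Pol III, the shared subunits RPC40, RPC19, RPB5, RPO26 and RPB8, TFIIIB and TFIIIC, the RRN factors, UAF30 and MAF1. The rule names functions and uses no measured values. Of the 39, 36 had a row among the 5616 ORFs of the table, and YDR045C, YGR047C and YBL025W had none and were not analysed here. No table used here pairs systematic names with gene names, so each member is given by its systematic name and by the role group in which it was listed for this work. The groups with a row were 7 subunits of Pol I, 2 subunits shared by Pol I and Pol III, 3 shared by all of Pol I, Pol II and Pol III, 9 of the 10 listed subunits of Pol III, 5 of 6 TFIIIC subunits, 2 TFIIIB subunits, 7 of 8 factors of Pol I initiation and the Pol III repressor. By their systematic names, these ORFs lie on 11 chromosomes. The groups hold members only, and further shared subunits and the TATA-binding protein were listed apart for comparison.

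VIN7 and W27, commercial wine yeasts that are both hybrids of *S. cerevisiae* and *S. kudriavzevii*, fermented Tempranillo must at 12°C or at 28°C, and RNA was taken at the start of exponential growth. Each array set the 12°C sample of a strain against its own 28°C sample, with 3 arrays for VIN7 and 3 for W27 (A, B and C). Both hybrids carry 3 genome sets and have lost parts of the *S. kudriavzevii* genome. The spots hold ORFs of an *S. cerevisiae* laboratory strain, so a value can mix the alleles of both parents, in shares that the arrays do not separate. All values are log2 ratios of 12°C over 28°C, given in the order of the arrays A, B and C, so a value of 1 is a 2-fold higher and of -1 a 2-fold lower level at 12°C. The RNA came from whole cultures, so fewer cells with a transcript and less of it in each cell cannot be told apart.

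The arrays did not agree well with each other. The SD over all ORFs ran from 0.39 on VIN7 C to 1.71 on VIN7 B, and W27 A went against W27 B (Pearson r = -0.14 over ORFs) and W27 C (r = -0.19), which went together (r = 0.79). In VIN7, r over ORFs was 0.36 for A and B, 0.37 for A and C and 0.06 for B and C. VIN7 C carried the dyes the other way round. Every array was used in the direction deposited. Some results that rest on W27 A or VIN7 C are also given without the array or with its sign turned. Means and counts of means by role group include every array. By the methods, each strain had 2 independent fermentations with several samples taken from each, so the 3 arrays of a strain cannot all be separate fermentations. Every n counts arrays, not fermentations, and p-values measure the spread between arrays, which may be technical in part.

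The members lay on both sides of 0 in each strain, with means above 0 for 17 of 36 in VIN7 and 14 of 35 in W27. The median over members of the mean log2 ratio was -0.13 in VIN7 (36 members) and -0.25 in W27 (35 members), beside -0.02 and -0.03 over all ORFs tested. By array, the median of the members was 0.10, -0.29 and 0.06 in VIN7 and -0.80, -0.01 and 0.08 in W27. The members' median lay furthest from that of all ORFs on W27 A, where the latter was -0.11, and next on VIN7 B, where it was 0.06. On W27 A, 18 of 32 members were below 0 and 14 above, so the shift came with a wide spread. Without W27 A the W27 median was 0.01, and with its sign turned it was 0.26.

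**Figure D1:**
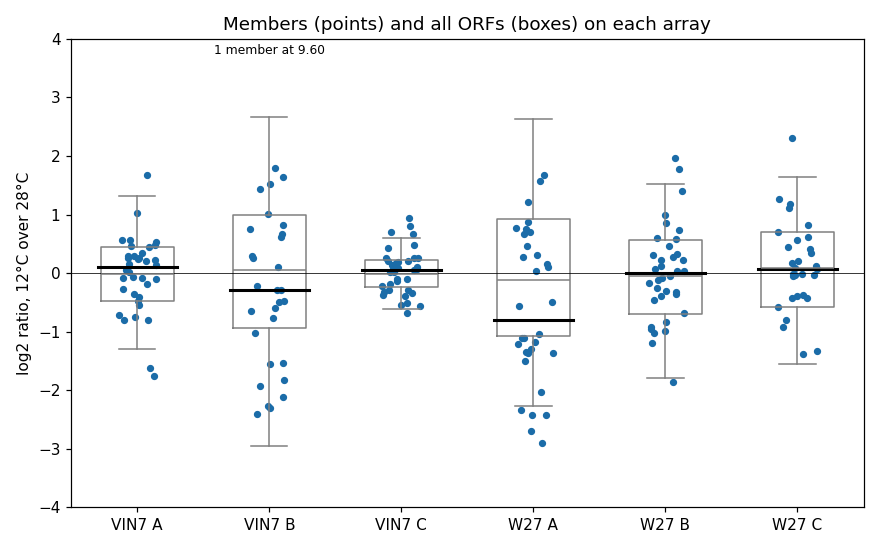
Log2 ratio of 12°C over 28°C of the members (points, with their median as a black line) and of all ORFs (boxes for the quartiles, whiskers from the 5th to the 95th percentile) on each of the 6 arrays. The members' median lies near that of all ORFs on 4 arrays and below it on VIN7 B (-0.29) and W27 A (-0.80), and the member at 9.6 on VIN7 B is YAL001C.

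No member passed a false discovery rate of 5% by limma in VIN7 (36 tested) or in W27 (35 tested), and 0% of all ORFs passed it in each strain. At an unadjusted p under 0.05 there was 1 member in VIN7, beside 5.47% of all ORFs, and 4 in W27, beside 7.27%. The median reached 2-fold higher for 1 of 36 members in VIN7 (5.71% of all ORFs) and 2-fold lower for 0 (4.1%). In W27 it reached 2-fold higher for 2 of 35 members (10.3%) and 2-fold lower for 2 (10.8%). Of the members with a value on all 3 arrays, 8 of 30 were above 0 on every VIN7 array and 7 below 0 on every one, beside 24.4% and 16.2% of all ORFs. For W27 the counts were 5 and 8 of 27, beside 13% and 18.8%. Each of these counts is a few members, and none was tested as a set.

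**Figure D2:**
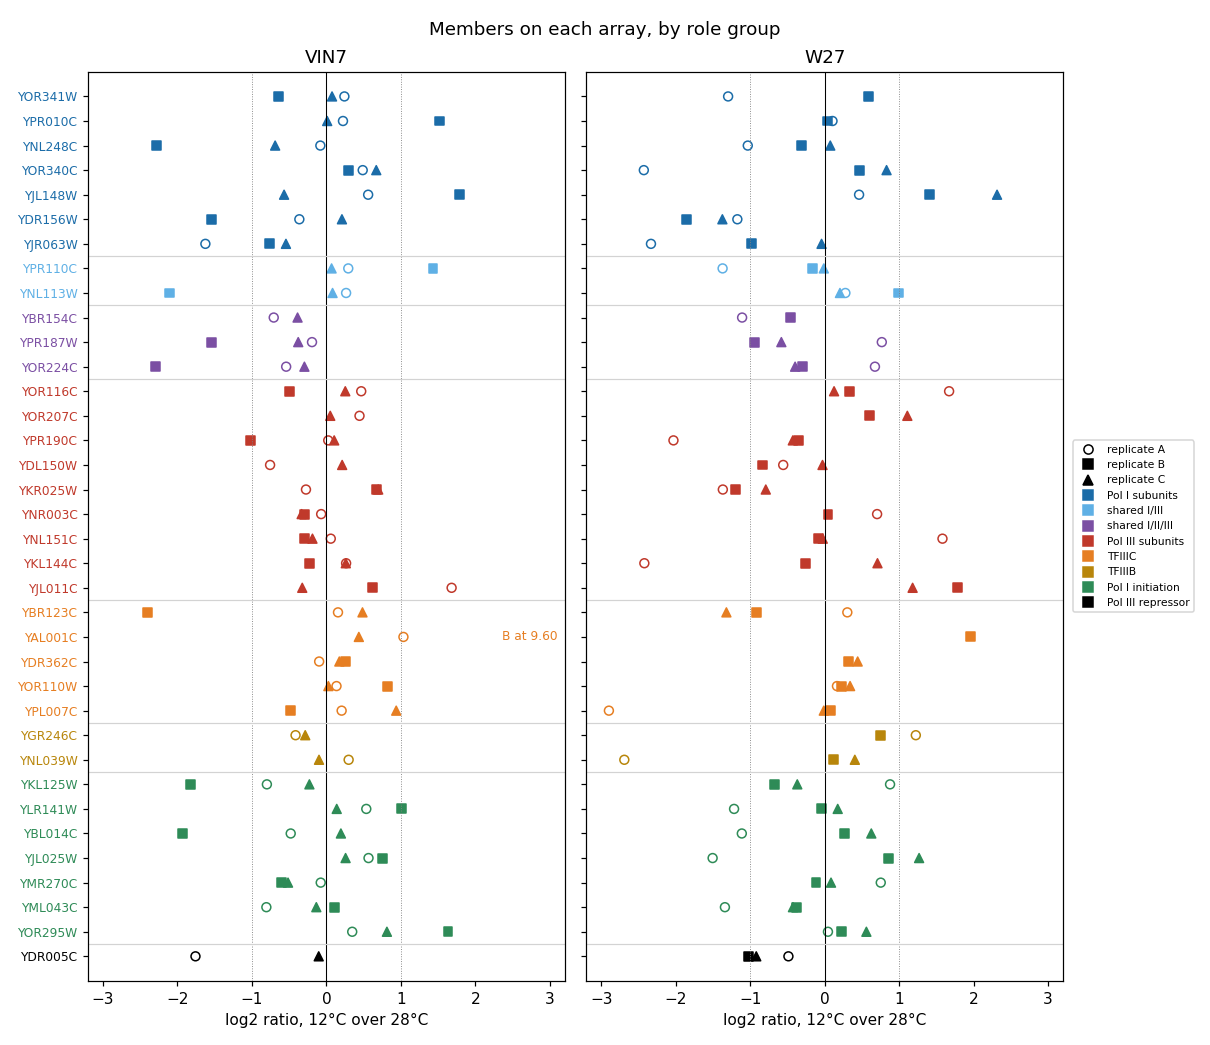
Log2 ratio of 12°C over 28°C (horizontal axis) of the 36 members with a row, grouped by role (colour), in VIN7 and in W27, with 1 symbol per array. Open circles (replicate A) lie far from the other symbols for many W27 members, and the value of YAL001C on VIN7 B, 9.6, lies off the axis and is written beside it.

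The 7 Pol I subunits went separate ways. Their means ran from -1.02 to 0.60 in VIN7 and from -1.47 to 1.39 in W27, with 3 of 7 and 2 of 7 above 0. In W27 the ends of that range were YJL148W and YDR156W, and in VIN7 they were YJL148W and YNL248C. YJL148W was at 0.46, 1.40 and 2.31 in W27, averaging 1.39 ± 0.93 (SD, n = 3), and at 0.56, 1.79 and -0.57 in VIN7. All W27 arrays were thus above 0, with C the highest, whereas the dye-swapped VIN7 C went against the other VIN7 arrays. YDR156W was at -1.17, -1.86 and -1.38 in W27, a mean of -1.47 ± 0.35 (SD, n = 3), and at -0.36, -1.54 and 0.21 in VIN7. It had the lowest W27 mean of all members, with a small spread between its W27 arrays. By limma over all ORFs the adjusted p was 0.661 for both in W27.

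Another Pol I subunit, YJR063W, was the only member below 0 on all 6 arrays. It was at -1.63, -0.76 and -0.54 in VIN7, a mean of -0.98 ± 0.57 (SD, n = 3). In W27 it was at -2.33, -0.99 and -0.04, a mean of -1.12 ± 1.15 (SD, n = 3). W27 C was thus close to no difference. This was the VIN7 member with an unadjusted p under 0.05 (adjusted p = 0.612 by limma). YNL248C was lower on every VIN7 array, at -0.08, -2.28 and -0.69, but its W27 values of -1.03, -0.31 and 0.07 fell on both sides of 0.

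The other Pol I subunits had no median of 2-fold in either strain. YOR341W was at 0.24, -0.65 and 0.08 in VIN7, and at -1.30 and 0.59 on W27 A and B. YPR010C was at 0.22, 1.52 and 0.01 in VIN7 and at 0.10 and 0.04 on W27 A and B. It was above 0 on each of its 5 arrays, and VIN7 B was far above the rest. YOR340C was at 0.49, 0.30 and 0.67 in VIN7, with the smallest spread of the Pol I subunits in that strain (SD 0.19), and at -2.43, 0.47 and 0.83 in W27. Its W27 mean of -0.38 turned to 0.65 without W27 A.

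The 3 members shared by all of the polymerases had no value above 0 outside W27 A. Further shared subunits were not among the members and are given below. On the VIN7 arrays, 8 of 8 values were below 0, and their means lay between -1.04 and -0.55. YOR224C had the lowest VIN7 mean of all members, -1.04 ± 1.09 (SD, n = 3), from -0.54, -2.30 and -0.30 on A, B and C. VIN7 B was the lowest and set most of that spread. In W27 it was at 0.67, -0.30 and -0.40. YPR187W was at -0.19, -1.55 and -0.38 in VIN7 and at 0.77, -0.95 and -0.58 in W27. Here too W27 A alone was above 0. YBR154C, with 4 values, was below 0 on each of them, at -0.71 and -0.39 on VIN7 A and C and -1.11 and -0.47 on W27 A and B.

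The 2 subunits that only Pol I and Pol III share had values on both sides of 0. YPR110C was at 0.29, 1.43 and 0.07 in VIN7 and at -1.37, -0.16 and -0.01 in W27. Its VIN7 arrays were all above 0 and its W27 arrays all below, W27 C by next to nothing. YNL113W was at 0.27, -2.11 and 0.08 in VIN7 and at 0.28, 0.99 and 0.20 in W27. VIN7 B was its only value below 0.

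Among the 9 Pol III subunits, means ran from -0.30 to 0.66 in VIN7, with 5 above 0, and from -1.12 to 1.48 in W27, also with 5 above 0. YJL011C had the highest W27 mean among members with at least 2 values in that strain. It was at 1.79 on B and 1.18 on C of that strain, with no value on A, averaging 1.48 ± 0.43 (SD, n = 2), and at 1.68, 0.63 and -0.32 in VIN7. For this member the dye-swapped VIN7 C was the one on the other side of 0. Over all members, VIN7 A had the same sign as VIN7 C for 27 of 36 and as VIN7 B for 19 of 30. YKR025W was at -1.37, -1.19 and -0.79 in W27, a mean of -1.12 ± 0.30 (SD, n = 3), with all arrays alike. In VIN7 it was at -0.27, 0.67 and 0.70, all above every W27 array. The adjusted p by limma was 0.661 for both in W27.

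YOR116C was above 0 on 5 of 6 arrays, at 0.47, -0.49 and 0.25 in VIN7 and at 1.67, 0.33 and 0.13 in W27. YOR207C was above 0 on each of its 4 arrays, at 0.45 and 0.05 on VIN7 A and C and at 0.60 and 1.11 on W27 B and C. Neither passed the test with all arrays. The remaining Pol III subunits, YPR190C, YDL150W, YNR003C, YNL151C and YKL144C (YNR003C at -0.07, -0.29 and -0.33 in VIN7 and 0.70 and 0.04 on W27 A and B), had VIN7 means between -0.30 and 0.10, and on W27 B and C no value beyond -0.84 and 0.71. W27 A set them far apart, from -2.42 (YKL144C) to 1.58 (YNL151C).

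Of the TFIIIC subunits, YAL001C had the highest VIN7 mean of all members, 3.69 ± 5.13 (SD, n = 3). In VIN7 it was at 1.04, 9.6 and 0.44, and its only W27 value, on B, was 1.96. All 4 values were above 0, but the VIN7 B value was the highest on that array, and without it the VIN7 mean was 0.74. Its median was the one VIN7 member median to reach 2-fold. YBR123C was at 0.16, -2.40 and 0.49 in VIN7 and at 0.30, -0.92 and -1.32 in W27, so its arrays disagreed in both strains. YOR110W was above 0 on all 6 arrays, at 0.14, 0.83 and 0.03 in VIN7 and at 0.16, 0.23 and 0.34 in W27. The size of its W27 mean was small, 0.24 ± 0.09 (SD, n = 3). YDR362C was at -0.10, 0.25 and 0.17 in VIN7 and at 0.32 and 0.44 on W27 B and C. YPL007C lay between -0.48 and 0.94 on 5 arrays and at -2.90 on W27 A.

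The 2 TFIIIB subunits among the members had no value on VIN7 B. YGR246C was at -0.41 and -0.28 on VIN7 A and C and at 1.22 and 0.74 on W27 A and B, so that every value was below 0 in VIN7 and above 0 in W27. YNL039W was at 0.30 and -0.10 on VIN7 A and C and at -2.69, 0.12 and 0.40 in W27. Only W27 A set it apart from 0.

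The factors of Pol I initiation had values on both sides of 0. Of the 7, 3 were above 0 on every VIN7 array, 2 were below 0 on every one and 2 were mixed. YOR295W was above 0 on all 6 arrays, at 0.35, 1.63 and 0.81 in VIN7, a mean of 0.93 ± 0.65 (SD, n = 3), with an adjusted p of 0.612 by limma, and at 0.04, 0.22 and 0.56 in W27. Its VIN7 values lay above its W27 values in the mean, but the arrays overlapped. YKL125W was below 0 on every array but W27 A, at -0.80, -1.82 and -0.23 in VIN7 and at 0.88, -0.67 and -0.37 in W27. YJL025W was above 0 on every array but W27 A, at 0.57, 0.76 and 0.26 in VIN7 and at -1.51, 0.86 and 1.27 in W27. For both, W27 A took the opposite side from the other 5 arrays. The remaining 4 (YLR141W, YBL014C, YMR270C and YML043C) had VIN7 means between -0.74 and 0.56 and W27 means between -0.72 and 0.24.

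The Pol III repressor, YDR005C, was lower at 12°C on each of the 5 arrays that measured it. It was at -0.49, -1.03 and -0.92 in W27, a mean of -0.81 ± 0.29 (SD, n = 3). On VIN7 A and C it was at -1.76 and -0.10, a mean of -0.93 ± 1.17 (SD, n = 2). The VIN7 A value was the lowest of any member on that array and lay at the 1.7th percentile of its ORFs, whereas the dye-swapped VIN7 C showed nearly no difference. By limma the adjusted p was 0.612 in VIN7 and 0.699 in W27.

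Over both strains, 24 members had a value on all 6 arrays. Of these, 2 were above 0 on every array (YOR110W and YOR295W), beside 3.59% of all ORFs with 6 values, and 1 was below 0 on every array (YJR063W), beside 3.52%. Counting members with gaps, which all had at least 4 values, 5 of 36 were above 0 on every array that measured them, beside 4.5% of all ORFs with at least 4 values, and 3 were below 0, beside 6.07%.

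The W27 results depended on array A. Without it, limma tested 30 members on W27 B and C and called 4 higher and 5 lower at 12°C, beside 19.5% and 19.6% of all ORFs tested. The share of members called was thus not above that of all ORFs. With all arrays kept but weighted by their estimated precision, 4 members were called higher (16.8% of all ORFs) and 4 lower (18.8%). The higher members without W27 A were YJL148W (log2 ratio 1.86, standard error 0.29, adjusted p = 0.00132 by limma), YJL011C (1.48, standard error 0.27, adjusted p = 0.00274), YJL025W (1.06, standard error 0.27, adjusted p = 0.0111) and YOR207C (0.85, standard error 0.27, adjusted p = 0.0299). They comprise 1 Pol I subunit, 2 Pol III subunits and 1 factor of Pol I initiation. Limma combines each ORF's own spread with one shared over all ORFs, so these standard errors are not each member's replicate error alone. YJL148W, at 1.40 and 2.31 on B and C, had 0.29. YPL007C, at 0.08 and -0.01 and not called, had 0.26.

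The lower members without W27 A were YDR156W (-1.62, standard error 0.27, adjusted p = 0.00166 by limma), YBR123C (-1.12, standard error 0.26, adjusted p = 0.0088), YDR005C (-0.98, standard error 0.26, adjusted p = 0.014), YKR025W (-0.99, standard error 0.26, adjusted p = 0.0147) and YPR187W (-0.77, standard error 0.26, adjusted p = 0.0418). They comprise 1 Pol I subunit, 1 TFIIIC subunit, the Pol III repressor, 1 Pol III subunit and 1 subunit shared by all of the polymerases. The calls in each direction thus came from both enzymes. Array A had the same sign as B and C for YJL148W, YDR156W, YKR025W and YDR005C, the opposite sign for YJL025W, YBR123C and YPR187W, and no value for YJL011C and YOR207C. The dye of the 12°C sample was the same on every W27 array, so dye and temperature cannot be told apart in W27.

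**Figure D3:**
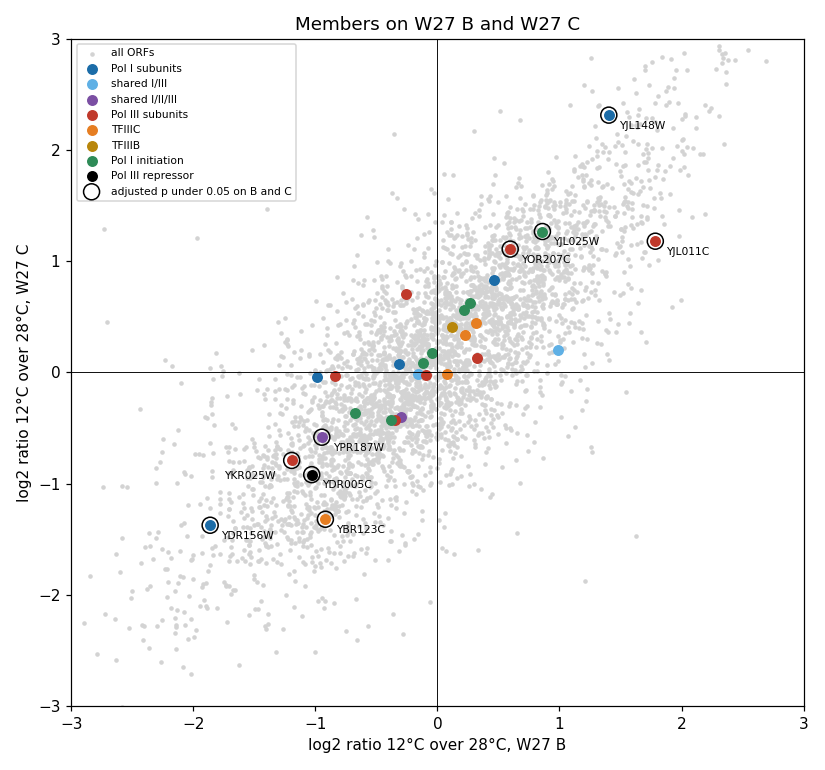
Log2 ratio of 12°C over 28°C on W27 B (horizontal) and W27 C (vertical) for all ORFs (grey) and for the 30 members with a value on both (coloured by role), both axes ending at -3 and 3, with rings around the 9 members past an adjusted p of 0.05 by limma on these arrays. The members lie along the same diagonal as the other ORFs, with 12 above 0 on both arrays and 13 below.

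On W27 B and C, 12 of 30 members were above 0 on both arrays and 13 below 0 on both, beside 39.3% and 39.4% of all ORFs, and the arrays correlated over these members with r = 0.86. Members are not independent replicates, and these arrays share strain and dye orientation. VIN7 A, with the 12°C sample in the same dye as in W27, correlated with W27 B with r = 0.71 over 36 members and with W27 C with r = 0.56 over 30, beside 0.66 and 0.61 over all ORFs. It had the same sign as the W27 call for 8 of the 9 members called without W27 A, the exception being YBR123C at 0.16, and for 89.4% of all ORFs called there. VIN7 B, also in that dye, had the same sign for 6 of 7 members with a value (73.7% of all called ORFs) and the dye-swapped VIN7 C for 4 of 9 (55.5%). W27 A itself had the same sign for 4 of 7 (34.7%).

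Between the strains, none of the 35 members with at least 2 values in each differed by limma at 5%, and 0% of all ORFs tested did. Of the members, 1 had an unadjusted p under 0.05 by limma (3.15% of all ORFs). That member was the Pol III subunit YKR025W, whose W27 mean lay below its VIN7 mean by a log2 difference of -1.48 (SE 0.53, adjusted p = 0.893 by limma). For 4 members the lowest W27 array was above the highest VIN7 array, YGR246C, YOR207C, YNR003C and YDR362C, beside 8.99% of all ORFs. For 2 members the highest W27 array was below the lowest VIN7 array, YKR025W and YPR110C, beside 9.81%. For 1 member every VIN7 array was above 0 and every W27 array below (YPR110C), beside 3.06% of all ORFs, and for 2 the reverse held (YNR003C and YGR246C), beside 2.42%. Of the 6 members whose strains did not overlap, YPR110C and YKR025W had 3 values in each strain, and the others had 2 values in at least 1 strain. The difference of YKR025W was -1.36 without W27 A, -0.57 with the sign of W27 A turned and -1.02 with the sign of VIN7 C turned. That of the TFIIIB subunit YGR246C, 1.33 (standard error 0.67), rests on 2 values in each strain, could not be tested without W27 A and was 0.11 with its sign turned.

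**Figure D4:**
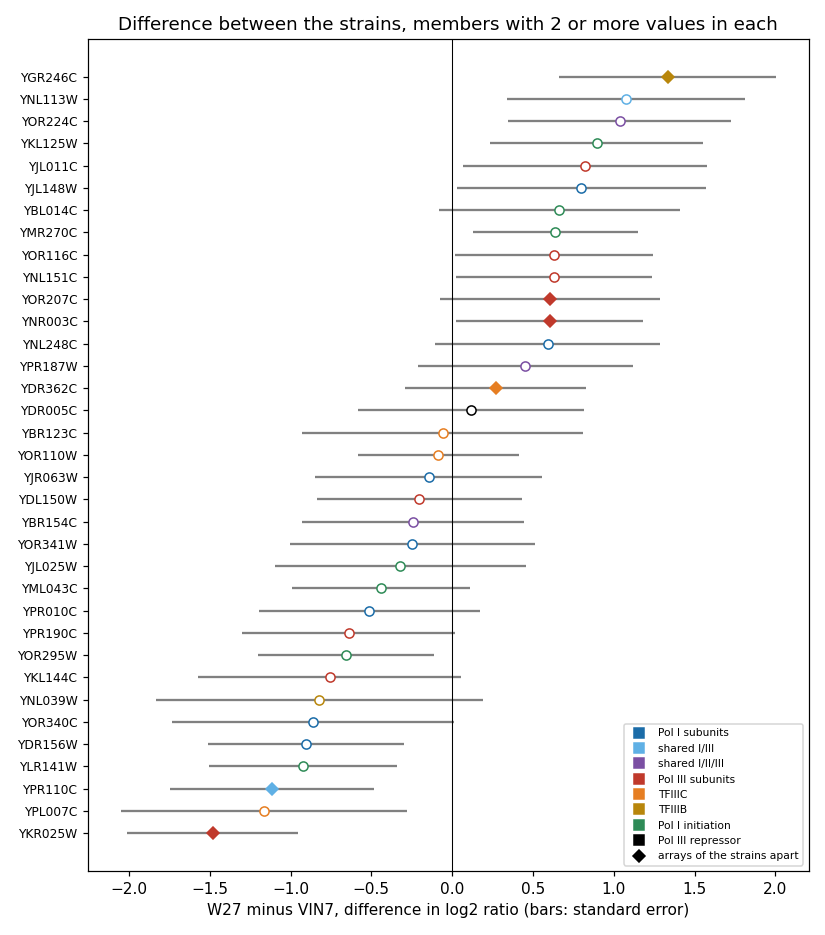
Difference between the strains (W27 minus VIN7) in the log2 ratio of 12°C over 28°C for the 35 members with at least 2 values in each strain, with its standard error from limma as bars and the role group as colour. Filled diamonds mark the 6 members whose W27 and VIN7 arrays do not overlap, with YGR246C at 1.33 and YKR025W at -1.48 as the ends.

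Genes outside the members were listed for comparison, and some of them, such as the further shared subunits, are themselves parts of the machinery. Of the 7 subunits particular to Pol II, 5 were tested in W27 without A and 1 was called higher by limma (YOL005C) and 0 lower. A list of further shared subunits and the TATA-binding protein had 2 of 3 ORFs with a row, and both were called lower without W27 A. YOR210W was at -2.81, -0.92 and -0.77 in W27 (adjusted p without A = 0.0259 by limma) and at -0.71 and -0.47 on VIN7 A and C. It was thus lower at 12°C on each of its 5 arrays. Of the members, YBR154C, YJR063W and YDR005C were also below 0 on every array that measured them. YER148W was at 0.34, -2.56 and -3.78 in W27 (adjusted p without A = 3.88e-04 by limma) and at -1.55, -0.76 and -0.56 in VIN7. W27 A was its only value above 0.

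Of 11 further factors that act with Pol I or Pol III on ribosomal DNA or as chromatin and termination factors, 10 had a row, 3 were tested without W27 A, and 1 was called higher and 1 lower. Of 10 kinases, phosphatases and their partners that act on MAF1 or the polymerases, 7 were tested, and 1 was called higher and 1 lower. The list of 4 regulators that bind the promoter motifs of ribosome biogenesis genes had 3 tested, with 1 called higher and 0 lower. No list was tested as a set, and without W27 A the calls over all ORFs stood at 19.5% higher and 19.6% lower.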

How the data were processed

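The authors scanned the arrays with GenePix, corrected the background, then normalized within arrays in Acuity, filtered spots by flag and corrected for print tips by hand. The values they deposited are log2 ratios of 12°C against 28°C, 1 per ORF and array, with blanks where none was kept. The methods describe the normalization only as to a log2 ratio value of 1, so the centring is not known. No scanner values were used here, and 0 columns of the table were left unused. The number of arrays limits the precision.

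Each strain's mean was tested against 0, and W27 minus VIN7 over 6 arrays, with limma 3.58.1 in R 4.3.3, for ORFs with values on at least 2 arrays per strain. Models were fitted on all ORFs, with Benjamini-Hochberg adjustment over all and a threshold of 0.05. They were run on simulated data with planted changes, where recovery was required only with the same noise on every array. That run does not show how many changes would be found on arrays as unlike as these. Counts of 2-fold changes and shared signs are descriptions. Alternatives covered centring, scale, missing values, array weights, turned signs, a dye term, a replicate block and each array left out. Values on every array are given, by rule, for the largest subunits and main assembly factors, for the highest and lowest mean in a strain, for medians of at least 2-fold with 1 sign on all 3 arrays, for members past limma in a fit with or without an array, and for members whose strains do not overlap. Other members shown by array were added after their values were seen. The members, role groups and other lists were chosen with earlier results of these data known. No sequence table was used here, so the promoter motif description set out in the design was not run.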

Additional observations from a re-analysis of the deposited data

Results flagged for a closer look

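For 3 members, every VIN7 array lay on one side of 0 and every W27 array on the other. This was 1 of 35 members with VIN7 above 0, beside 3.06% of all ORFs with at least 2 values in each strain, and 2 of 35 with VIN7 below 0, beside 2.42%. For YPR110C, a subunit shared by Pol I and Pol III, the W27 minus VIN7 difference in log2 ratio was -1.11 (adjusted p = 0.893 by limma). Leaving out W27 A gave -0.69, and turning its sign gave -0.20. For YNR003C, a Pol III subunit with 2 values in W27, the difference was 0.60 (adjusted p = 0.893 by limma), from VIN7 values of -0.07, -0.29 and -0.33 and W27 values of 0.70 (A) and 0.04 (B). For YGR246C, a TFIIIB subunit, the difference was 1.33 (adjusted p = 0.893 by limma). No difference passed the threshold over all ORFs, and the test for YNR003C and YGR246C could not be run without W27 A.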

How the results depend on the processing

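No member was called by limma in VIN7 or between the strains under any alternative with adjusted p-values, and at an unadjusted p under 0.05 there was 1 in each. In W27 the count of members called was 0 with all arrays, 8 with array weights, 4 at an unadjusted p under 0.05 and 0 to 9 with each array left out in turn. The 9 came without W27 A, where each member tested had 2 values and limma combined their spread with one shared over all ORFs. With each array left out, the count of members with a median of at least 2-fold ran from 0 to 3 higher and 1 to 6 lower in VIN7. In W27 it ran from 0 to 3 higher and 2 to 7 lower. The highest VIN7 counts came without VIN7 C (30 members), where 470 of 3363 ORFs were higher and 461 lower. In W27 the 3 higher came without W27 A (30 members), beside 478 of 3938 ORFs. The 7 lower came without W27 C (32 members), beside 540 of 4542 ORFs. With each array left out, 10 to 16 members were above 0 and 8 to 11 below 0 on every remaining VIN7 array. On every remaining W27 array, 6 to 12 were above and 9 to 13 below. The 16 and 11 came without VIN7 B (36 members), beside 1496 and 1503 of 4672 ORFs. The 12 and 13 came without W27 A (30 members), beside 1548 and 1550 of 3938 ORFs. On a common scale, 4 members were 2-fold lower in VIN7 (500 of 5100 ORFs) and 1 in W27 (389 of 4894). The mean in place of the median gave 2 members 2-fold lower in VIN7 (370 of 5100 ORFs). With complete values only, 1 was 2-fold higher in W27 (320 of 3613 ORFs). A median of 4-fold was reached by 0 members in either direction and strain. Of all ORFs, 56 were higher and 17 lower of 5100 in VIN7, and 56 and 70 of 4894 in W27. With the sign of VIN7 C turned, 2 members were above 0 and 2 below 0 on every VIN7 array, beside 363 and 359 of 3359 ORFs. With the sign of W27 A turned, 5 were below 0 on every W27 array, beside 793 of 3613 ORFs. There, 1 member was 2-fold lower (663 of 4894 ORFs) and the median of the members in W27 was 0.26. The fitted W27 value changed sign for 8 of 30 members without W27 A, 4 of 27 without W27 B, 3 of 32 without W27 C, 8 of 35 with array weights and 19 of 35 when W27 A was turned. In VIN7 it did so for 5 of 36 without VIN7 B and 5 of 36 with the sign of VIN7 C turned. Among the members called without W27 A or apart between the strains, those that changed direction in that comparison were YPR187W in W27 (-0.765 to 0.0915 with each array left out, the highest without W27 B), YJL025W in W27 (-0.323 to 1.0635, below 0 without W27 B or W27 C), and YNR003C between the strains, at -0.10 with W27 A turned. The cause was not tested. Whether the replicate letters pair the arrays could not be told. Deviations from the strain means correlated between same-lettered arrays with -0.11, 0.11 and -0.26. Such deviations sum to 0 within a strain, so these values do not decide it. With the replicate block 0 members differed between the strains, with a median difference of -0.06.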
